A study of Mus musculus with 24 samples.

Results

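The widest 1000 H3K4me3 domains of wild-type liver were taken from the list of H3K4me3 regions called in the wild-type library. The members were selected on width alone: all 18852 regions were ordered from wide to narrow, ties were broken by chromosome and then by start, and the first 1000 were kept. They spanned 10653 to 81548 bp with a median of 13611.5 bp, against a median of 3358 bp over all 18852 regions. At the lower limit the last 5 domains spanned 10677, 10669, 10662, 10660 and 10653 bp, and the first 5 regions left out spanned 10651, 10647, 10641, 10636 and 10633 bp. Because wild-type width chose the members, these widths are a description and carry no test.

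H3K4me3 is trimethylation of lysine 4 of histone H3, which is placed at the start sites of genes by SET1 and MLL methyltransferases and usually forms a narrow peak around the promoter. A minority of promoters carry the mark over many kilobases, running into the gene body, and such broad domains are known to be frequent at genes that define the identity of a cell type and at genes with steady, high transcription. H3K27ac, acetylation of lysine 27, marks active promoters and enhancers, and H3K4me1 marks enhancers and the flanks of promoters. Myc is a transcription factor that binds many active promoters, TEAD proteins are the DNA-binding partners of YAP, and YAP is the coactivator at the end of the Hippo pathway.

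The chromatin came from whole mouse liver of 4 genotypes: R26-rtTA;tet-Myc, R26-rtTA;tet-YAP, R26-rtTA;tet-Myc;tet-YAP with both transgenes, and R26-rtTA;WT with neither, called tet-Myc, tet-YAP, tet-Myc/YAP, and wild-type below. All of them, the wild-type included, carried R26-rtTA, the doxycycline-responsive transactivator expressed from the Rosa26 locus, and per the study the transgenes were switched on by feeding doxycycline for 2 days. Rosa26 is active in most cell types, so its promoter does not limit the transactivator to hepatocytes, and the sources used here give neither age nor sex nor whether animals were pooled. In whole liver, fewer cells with a mark and less of the mark per cell cannot be told apart. Chromatin immunoprecipitation with sequencing gave lists for H3K4me3, H3K27ac, Myc, TEAD and RNA polymerase II in each genotype, for YAP in tet-YAP livers and tet-Myc/YAP livers, and for H3K4me1 in wild-type. For YAP the chromatin was fixed in 2 steps, and for the other antibodies in 1. Each group held 1 library, so no difference between genotypes could be set against replicate spread, no p-value was computed, and all intervals below are Wilson 95% intervals that cover counting only. The lists carry positions of the mm9 build without gene names, and no mm9 annotation or genome was used here, so the domains are given by position and the liver label was not checked against marker genes.

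The lists differed in length and depth in ways that bear on every comparison below. Over the whole lists, H3K4me3 regions had a median width of 2646 bp in tet-Myc livers, 3498.5 bp in tet-YAP livers and 2524 bp in tet-Myc/YAP, against 3358 bp in wild-type. The Myc lists held 32592, 13227 and 30327 peaks in tet-Myc livers, tet-YAP livers and tet-Myc/YAP livers, against 4775 in wild-type, and the RNA polymerase II lists held 74914, 54617 and 64678 peaks, against 39181 in wild-type, from 50.6, 37.7 and 45.8 M tags, against 20.9 M. For Myc in wild-type and YAP in tet-YAP the fragment length estimated by the peak caller was only 51 and 56 bp, and median peak widths were 81 and 98 bp, while the median widths of the other narrow lists were 521 to 749 bp. For the H3K4me3, H3K27ac and H3K4me1 libraries no depth was found in the lists or notes.

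The 1000 domains covered 16.3 Mb, which was 19.9% of all bases under wild-type H3K4me3. By wild-type H3K27ac they fell into 3 classes, with limits set after the values had been seen. In 804 domains (80.4%) H3K27ac regions covered at least 50% of the width, and these are called acetylated below. Another 70 domains (7.0%) were covered in part, to under 50%, and 126 (12.6%) had no H3K27ac region at all. The classes were well separated, since 756 domains were covered to at least 90% and only 10 lay between 40 and 50% and 6 between 50 and 60%. Among the next 1000 wild-type regions by width, 91.0% were acetylated, 2.5% were covered in part and 6.5% had none, and among all 17852 other regions these shares were 75.1%, 1.28% and 23.6%.

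The very widest domains were not the acetylated ones. None of the 22 widest was acetylated, 10 of them being covered in part and 12 without H3K27ac, and the first acetylated domain stood at rank 23. Among the 100 widest, 35 were acetylated, 28 partly covered and 37 without H3K27ac. Domains without H3K27ac had a median width of 18152.5 bp and domains covered in part 19559.5 bp, against 13114.5 bp for the acetylated ones. The domains without H3K27ac had low wild-type enrichment: the score column, of unstated scale and used only within a list, had a median of 2255 in domains without H3K27ac, 38910 in those covered in part and 57241 in the acetylated ones. A score under 10000 was found in 122 of the 126 domains without H3K27ac, 9 of the 70 covered in part and 31 of the 804 acetylated domains.

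**Figure D1:**
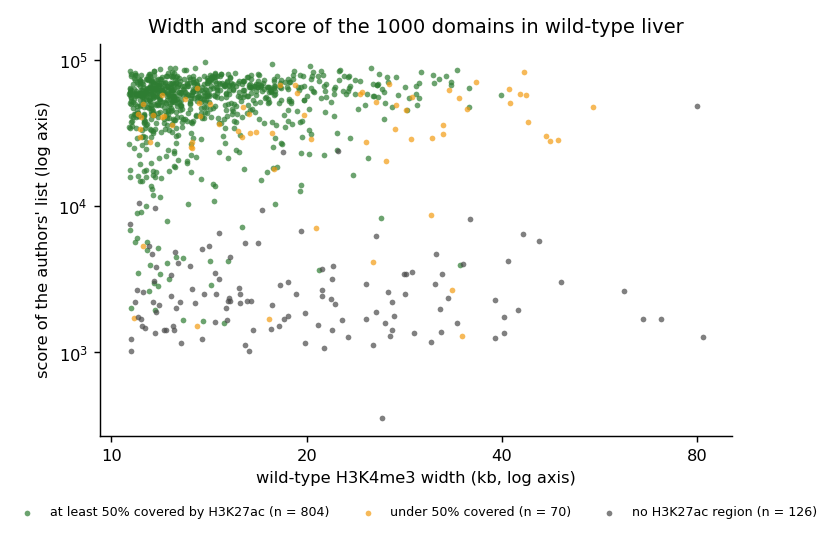
Width in kb and score of the authors' list for each of the 1000 wild-type domains, both on log axes, with 1 point per domain coloured by the share of its width under wild-type H3K27ac. The 126 domains without H3K27ac lie mostly under a score of 10000 at all widths, and the 804 acetylated domains lie mostly above it and reach 39864 bp.

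The 10 widest domains show this difference region by region. The widest, chr8:117307247-117388794, was 81548 bp long with a score of 1279, and only 1.13% of its width was in inner blocks, the stretches of stronger enrichment that the broad caller marks inside a region. No Myc, YAP or RNA polymerase II peak lay in it in any list. H3K27ac covered 2.34% of it in tet-Myc and 6.41% in tet-Myc/YAP, with 3 and 1 TEAD summits there, against none of either in tet-YAP and wild-type. By contrast the domain at rank 2, chr10:81549126-81628899 (79774 bp), had a score of 48410 and 12 inner blocks, although it too had no H3K27ac in wild-type. Ranks 6, 8, 9 and 10 (chr17:22055190-22110509, chr10:81490340-81539150, chr17:17087485-17134824 and chr2:150136024-150182815) were covered in part, with H3K27ac over 3.99 to 6.38% of the width in wild-type and scores of 27820 to 47721. Ranks 3, 4, 5 and 7 had no H3K27ac in any genotype, and their scores were 1680 to 3039.

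The widest acetylated domains, chosen after the values had been seen, looked different. At rank 23, chr8:41943094-41982957 (39864 bp) had 16 inner blocks over 47.1% of its width, H3K27ac over its whole length in all 4 genotypes, and RNA polymerase II peaks over 28.5% of it in tet-Myc livers, 86.8% in tet-YAP livers and 80.2% in tet-Myc/YAP, against 87.2% in wild-type. At rank 28, chr4:96296991-96332581 (35591 bp) was covered by H3K27ac to 58.1% in wild-type. At rank 29, chr2:26425147-26460731 (35585 bp) was fully acetylated in all 4 genotypes and had RNA polymerase II over 56.9%, 54.4% and 54.1% in tet-Myc livers, tet-YAP livers and tet-Myc/YAP livers, against 43.7% in wild-type.

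Within the domains, strong enrichment took up a limited part of the length. Inner blocks covered a median of 41.5% of a domain, against 47.2% of the next 1000 regions and 53.4% of all other regions. The share was 46.5% in acetylated domains, 20.6% in those covered in part and 12.7% in those without H3K27ac. A domain held a median of 2 inner blocks and at most 16, and its longest block had a median of 4099.5 bp, against 3224.5 bp in the next 1000 regions. So on the scale of strong enrichment the domains without H3K27ac, with a longest block of 1268 bp at the median, were shorter than the acetylated domains, whose longest block was 4554.5 bp.

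The acetylation of the domains was much alike in the 4 lists. An H3K27ac region touched 88.4% of the domains in tet-Myc livers, 88.0% in tet-YAP livers and 88.1% in tet-Myc/YAP, against 87.4% in wild-type. Over all 18852 wild-type regions these shares were 82.6%, 81.7%, 82.7% and 76.9%. Of the 804 acetylated domains, 799, 800 and 790 were still covered to at least 50% in tet-Myc livers, tet-YAP livers and tet-Myc/YAP livers. Of the 126 domains without H3K27ac in wild-type, 14, 9 and 12 had a region in tet-Myc livers, tet-YAP livers and tet-Myc/YAP livers (11.1%, 7.14% and 9.52%), against 30.8%, 28.1% and 34.0% of the 4221 other regions without H3K27ac in wild-type. One of them, chr16:94377685-94416748 at rank 25 (39064 bp), had H3K27ac over 19.6% of its width in tet-Myc and 21.0% in tet-Myc/YAP, against none in tet-YAP and wild-type, and no H3K4me3 region in any transgenic list.

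H3K27ac reached well beyond the edges of the domains. The regions touching a domain had a median summed length of 26.9 kb in tet-Myc livers, 29.1 kb in tet-YAP livers and 22.9 kb in tet-Myc/YAP, against 32.03 kb in wild-type. For domains with H3K27ac in both lists, the median ratio of that length to wild-type was 0.953 in tet-Myc livers, 0.978 in tet-YAP livers and 0.831 in tet-Myc/YAP, and over the other regions it was 0.960, 0.971 and 0.845. H3K4me1, measured only in wild-type, touched 83.1% of the domains, against 71.1% of all regions. It covered 91.0% of the bases of acetylated domains, 18.5% of those covered in part and 0.597% of those without H3K27ac, so the domains that lacked acetylation lacked H3K4me1 as well.

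To follow the domains across genotypes, the summed length of all H3K4me3 regions touching a domain was divided by its wild-type width. A domain was called narrower at a ratio of at most 0.8, a domain with no region included, and wider at the inverse of that limit or more. The median ratio was 0.722 in tet-Myc livers (quartiles 0.530 and 0.896), 0.897 in tet-YAP livers (0.668 and 1.007) and 0.679 in tet-Myc/YAP (0.470 and 0.866). All 3 comparisons share the wild-type library, so a wild-type width that was large by chance lowers the ratio in each of them.

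In tet-Myc 606 domains were narrower (60.6%, interval 57.5 to 63.6%), against 46.4% of all regions. In tet-YAP 388 were narrower (38.8%, 35.8 to 41.9%), against 38.0% of all regions. In tet-Myc/YAP 657 were narrower (65.7%, 62.7 to 68.6%), against 49.7% of all regions. The rule used the wild-type widths that stand below these ratios, so nothing is read from the excess over all regions. The next 1000 regions by width, which the rule left out, were narrower in 56.3%, 33.2% and 61.4% of cases in tet-Myc livers, tet-YAP livers and tet-Myc/YAP livers.

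Wider domains were few. They numbered 15 in tet-Myc livers (1.5%, against 4.52% of all regions), 76 in tet-YAP livers (7.6%, against 13.6%) and 8 in tet-Myc/YAP livers (0.8%, against 4.55%). No H3K4me3 region was called at 51 domains in tet-Myc livers (5.1%, against 9.53%), 36 in tet-YAP livers (3.6%, against 17.7%) and 77 in tet-Myc/YAP livers (7.7%, against 9.05%). A domain was broken into more than 1 region in 20.4% of cases in tet-Myc livers, 11.9% in tet-YAP livers and 21.7% in tet-Myc/YAP, with up to 4 pieces. Among the next 1000 regions this share was 8.1%, 3.8% and 9.2%. When each ratio was divided by the median ratio of all regions in that genotype (0.822, 0.896 and 0.802), an alternative added after seeing the data, the share of narrower domains was 39.9% in tet-Myc livers, 30.3% in tet-YAP livers and 44.4% in tet-Myc/YAP, and the share of wider domains was 4.7%, 12% and 6.9%.

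The genotypes differed most in the domains without H3K27ac. Acetylated domains had median ratios of 0.733 in tet-Myc livers, 0.859 in tet-YAP livers and 0.721 in tet-Myc/YAP, with quartiles from 0.54 to 0.98 over the 3 genotypes. Domains covered in part had median ratios of 0.652, 0.964 and 0.498. Domains without H3K27ac had median ratios of 0.581 in tet-Myc livers, 1.085 in tet-YAP livers and 0 in tet-Myc/YAP. Of these 126 domains 39 had no region in tet-Myc livers (31.0%, 23.5 to 39.5%), 16 had none in tet-YAP livers (12.7%, 7.97 to 19.6%) and 64 had none in tet-Myc/YAP livers (50.8%, 42.2 to 59.4%), and 39 were wider in tet-YAP (31.0%), against 7 in tet-Myc and 0 in tet-Myc/YAP.

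The narrower regions without H3K27ac did not show this split. Among the 4221 other regions without H3K27ac the median ratio was 0.859 in tet-Myc livers, 0.909 in tet-YAP livers and 0.823 in tet-Myc/YAP. The track names in the list headers end with a number for wild-type and tet-YAP and do not for tet-Myc and tet-Myc/YAP. What that number stands for is not stated, and whether the lists were made in different ways was not tested.

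**Figure D2:**
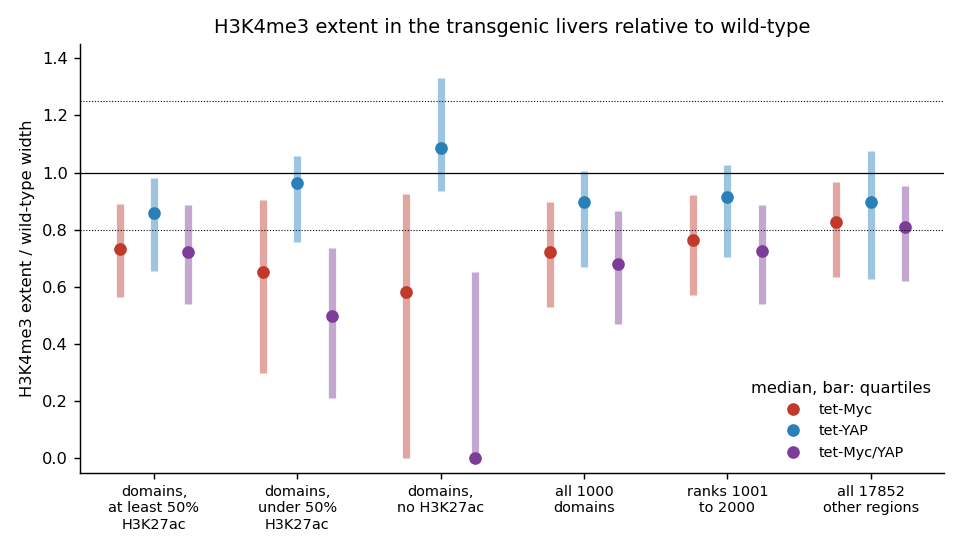
Ratio of H3K4me3 extent in tet-Myc livers, tet-YAP livers and tet-Myc/YAP livers to wild-type width, as the median (point) and quartiles (bar) over the domains of each acetylation class, all 1000 domains, the next 1000 regions and all 17852 other regions, with dotted lines at the limits for narrower and wider. In domains without H3K27ac the medians were 0.581, 1.085 and 0, while in acetylated domains they were 0.733, 0.859 and 0.721.

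Single domains show the range of these changes. At rank 1 H3K4me3 extended over 972 bp in tet-Myc livers, 80745 bp in tet-YAP livers and 2530 bp in tet-Myc/YAP livers, against 81548 bp in wild-type. At rank 3, chr18:69591694-69661887, there was no region in tet-Myc and tet-Myc/YAP and a region of 101116 bp in tet-YAP, against 70194 bp in wild-type. At rank 4, chr2:76544960-76610836 (65877 bp), none of the transgenic lists held a region. At rank 5, chr7:49821560-49883221, the extent was 59310 bp in tet-Myc livers, 75081 bp in tet-YAP livers and 0 in tet-Myc/YAP livers, against 61662 bp in wild-type. Thus 3 of the 5 widest wild-type domains were absent or almost absent in both genotypes that carried the Myc transgene, and 4 of the 5 had a ratio of at least 0.990 in tet-YAP.

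Many of the wider domains shared their transgenic region with a neighbouring wild-type region. The ratio then also counts the length over that neighbour, and this applied to 12 of the 15 wider domains in tet-Myc livers, 28 of the 76 in tet-YAP livers and 4 of the 8 in tet-Myc/YAP livers. In tet-Myc a single region of 97523 bp covered the domains at ranks 6 and 17 (chr17:22055190-22110509 and chr17:22112411-22154794), and it gave ratios of 1.76 and 2.30. In tet-YAP a region of 112881 bp covered the domains at ranks 22 and 104 (chr13:114694597-114734890 and chr13:114659149-114684459) with ratios of 2.80 and 4.46, the highest of any domain in tet-YAP. Both of these domains had little H3K4me3 in the other transgenic livers, with extents of 0 and 7737 bp in tet-Myc and 0 and 2816 bp in tet-Myc/YAP. At rank 32, chr13:114612625-114647336 (34712 bp), next to them on the chromosome, no transgenic list held a region. The region of 101116 bp in tet-YAP likewise joined the domain at rank 3 to the domain at rank 93 (chr18:69665851-69691849).

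In acetylated chromatin such a join was found at ranks 876 and 137 (chr8:47555207-47566436 and chr8:47568081-47590346). At rank 876 the extent was 24419 bp in tet-Myc livers, 10896 bp in tet-YAP livers and 33359 bp in tet-Myc/YAP livers, against 11230 bp in wild-type. The regions of tet-Myc and tet-Myc/YAP there also touched the domain at rank 137, where the same lengths gave ratios of only 1.10 and 1.498, so the ratio of 2.97 at rank 876 in tet-Myc/YAP, the highest of any domain there, also counts length at its neighbour. RNA polymerase II peaks covered 96.4%, 89.5% and 93.2% of the domain at rank 876 in the 3 transgenic livers, against 59.6% in wild-type, and Myc summits numbered 4, 3 and 6, against 0.

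Some acetylated domains were wider without touching another wild-type region. At rank 346, chr15:77660612-77676310 was wider in tet-Myc/YAP alone, with 13547 bp in tet-Myc livers, 14556 bp in tet-YAP livers and 30310 bp in tet-Myc/YAP livers, against 15699 bp in wild-type. At rank 246, chr15:85562337-85580120 was wider in all of them, with 31525, 33686 and 30415 bp in tet-Myc livers, tet-YAP livers and tet-Myc/YAP livers, against 17784 bp in wild-type, and it held 8, 7 and 8 Myc summits, against 1.

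Since the members were chosen for being wide in wild-type, the same rule was also applied to each transgenic list. The widest 1000 regions of tet-Myc reached down to 8049 bp, those of tet-YAP to 9957 bp and those of tet-Myc/YAP to 7674 bp, against 10653 bp in wild-type. Of the wild-type domains, 608, 644 and 564 overlapped a region among the widest 1000 of tet-Myc livers, tet-YAP livers and tet-Myc/YAP livers (60.8%, 64.4% and 56.4%), and of the widest regions of those lists 61.9%, 64.5% and 57.4% overlapped a wild-type domain. All 4 lists shared 406 wild-type domains among their widest, of which 329 were acetylated, 35 were covered in part and 42 had no H3K27ac.

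Turning the choice round turned the direction round only in part. Over the regions chosen in tet-Myc, the summed wild-type extent was 1.09 times the tet-Myc width at the median, with 298 regions past the limit for wider in wild-type and 57 past that for narrower. In tet-Myc/YAP the median was also 1.09, with 293 regions wider and 75 narrower in wild-type. In tet-YAP the median was 0.958, with 114 regions wider and 284 narrower in wild-type. Chosen on either side, tet-Myc and tet-Myc/YAP thus had the narrower regions, whereas for tet-YAP each list was wider than the other over its own members. Domains without H3K27ac were found among the widest of tet-YAP in 86.5% of cases, against 56.3% for tet-Myc and 34.9% for tet-Myc/YAP.

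The length that was not covered lay mainly at the outer ends. In acetylated domains 79.96% of the uncovered bases in tet-Myc livers, 82.3% in tet-YAP livers and 78.8% in tet-Myc/YAP were beyond the outermost transgenic region, and 17.1%, 10.4% and 18.2% were in gaps between regions. The remainder was in domains with no region. Of the edges that could be compared in acetylated domains, 85.0%, 71.4% and 82.3% lay inward of the wild-type edge, by a median over all such edges of 606.5 bp in tet-Myc livers, 297.5 bp in tet-YAP livers and 590 bp in tet-Myc/YAP. In domains without H3K27ac, 57.9%, 73.2% and 68.2% of the uncovered bases belonged to domains with no region at all, and the median edge lay 784 bp outward of the wild-type edge in tet-YAP. Wild-type width chose the members, so the choice itself favours wild-type edges that lie far out. Edges were not compared in the other regions, and nothing is read from the inward share.

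**Figure D3:**
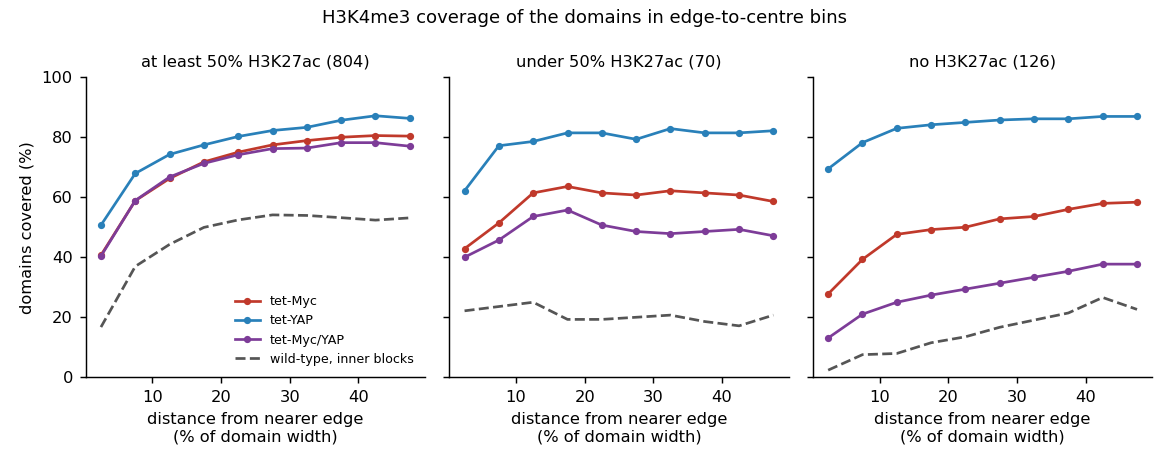
Share of domains (%) covered by H3K4me3 regions of tet-Myc livers, tet-YAP livers and tet-Myc/YAP livers at 10 distances from the nearer edge, given as % of the domain's width, for the 3 acetylation classes, with the wild-type inner blocks dashed. In acetylated domains the share was 40.7%, 50.7% and 40.4% at the edge and 80.3%, 86.3% and 77.0% at the centre. Wild-type width chose the domains, and the other regions were not profiled.

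Inner blocks gave another order of the genotypes. In acetylated domains they covered a median of 5431 bp in tet-Myc livers, 4847.5 bp in tet-YAP livers and 5573 bp in tet-Myc/YAP, against 6312.5 bp in wild-type. As a share of all bases of these domains this was 39.5%, 35.0% and 40.2%, against 46.3% in wild-type. So by strong enrichment tet-YAP had the least of the transgenic lists, while by outer width it had the most. In domains without H3K27ac the share of bases in inner blocks was 7.07%, 10.95% and 4.12% in tet-Myc livers, tet-YAP livers and tet-Myc/YAP livers, against 14.15% in wild-type.

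RNA polymerase II was found at most domains in every genotype. A peak overlapped 89.2% of the domains in tet-Myc livers (87.1 to 91.0%), 89.9% in tet-YAP livers and 87.7% in tet-Myc/YAP, against 86.4% in wild-type. Over all regions the shares were 77.5%, 71.1%, 73.5% and 63.9%. In acetylated domains the shares were 98.9%, 99.6% and 98.01%, against 98.3%, and in domains without H3K27ac 25.4%, 27.8% and 21.4%, against 11.9%.

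The length under RNA polymerase II peaks differed more than their presence. Peaks covered 64.9% of the bases of acetylated domains in tet-Myc livers, 53.0% in tet-YAP livers and 58.7% in tet-Myc/YAP, against 47.0% in wild-type. Of the 1000 domains, 517 gained at least 10 points of coverage in tet-Myc livers, 260 in tet-YAP livers and 406 in tet-Myc/YAP livers, and 32, 63 and 59 lost as much. Over the other regions the shares gaining 10 points were 45.8%, 23.1% and 34.1%. The order of the genotypes in coverage was the order of their tag numbers, and the part of depth in it was not tested.

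Acetylated domains that kept their width carried more RNA polymerase II and more Myc than those that were narrower. Among acetylated domains in tet-Myc/YAP, the 7 wider ones had a median RNA polymerase II coverage of 93.2%, the 304 in between 75.8% and the 493 narrower ones 49.3%. Their median numbers of Myc summits in tet-Myc/YAP were 7, 4 and 3. In the wild-type library the same domains had RNA polymerase II coverage of 32.8%, 47.6% and 34.3%. In tet-Myc the coverage in that genotype was 96.0%, 79.6% and 62.9% for 6 wider, 317 intermediate and 481 narrower domains, and in tet-YAP 55.7%, 54.6% and 42.9% for 28, 432 and 344. These are descriptions over domains of 1 library each, and the same order held among acetylated regions outside the 1000, at 53.0%, 38.8% and 25.4% in tet-Myc/YAP. Over all 1000 domains the wider ones fell out of this order in tet-Myc and tet-YAP. Their median coverage was 6.52% for 15 domains in tet-Myc and 6.71% for 76 in tet-YAP, against 49.9% and 34.9% for narrower ones. In tet-Myc/YAP the 8 wider domains had 92.7%, against 32.5%.

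Myc peaks were present at most domains wherever the Myc transgene was induced. A Myc peak overlapped 82.2% of the domains in tet-Myc livers (79.7 to 84.4%), 68.0% in tet-YAP livers (65.0 to 70.8%) and 82.6% in tet-Myc/YAP (80.1 to 84.8%), against 28.8% in wild-type (26.1 to 31.7%). Over all regions the shares were 70.7%, 43.0%, 72.2% and 13.3%. Only peaks from lists of very different length enter this comparison. With each Myc list cut to its 4775 peaks of highest −log10 q, the shares were 34.9% in tet-Myc livers, 35.4% in tet-YAP livers and 34.6% in tet-Myc/YAP, against 28.8% in wild-type.

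Within the domains Myc peaks were far more frequent in the acetylated class than in the class without H3K27ac. In tet-Myc 94.7% of acetylated domains, 82.9% of those covered in part and 2.38% of those without H3K27ac had a Myc peak, and in tet-Myc/YAP these shares were 94.8%, 82.9% and 4.76%. Of the 167 domains with no Myc peak in tet-Myc or tet-Myc/YAP, 120 had no H3K27ac. The widest of them were at ranks 1, 3 and 4. Of the next 1000 regions 87.5% had a Myc peak in tet-Myc, against 82.2% of the domains, but among acetylated regions alone the share was 92.7%, against 94.7% of acetylated domains. Regions without H3K27ac differed more by width. Of the 4221 such regions outside the domains 22.7% had a Myc peak in tet-Myc and 27.5% in tet-Myc/YAP, against 2.38% and 4.76% of the domains without H3K27ac.

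Wide domains held several Myc summits. They averaged 3.15 summits in tet-Myc livers, 1.72 in tet-YAP livers and 2.85 in tet-Myc/YAP, against 0.862 in wild-type. Per kb the domains had fewer summits than narrow regions in the transgenic livers, with 0.193 per kb in tet-Myc livers, 0.105 in tet-YAP livers and 0.174 in tet-Myc/YAP, against 0.287, 0.144 and 0.284 per kb in the 13852 narrowest regions. Acetylated domains had 0.260, 0.140 and 0.234 summits per kb, close to the 0.256, 0.129 and 0.240 of acetylated regions of the next 1000. Wild-type was the exception, with 0.0703 summits per kb in acetylated domains and 0.0367 in those regions. Of the 833 wild-type summits in acetylated domains, however, 372 lay in 17 domains with 10 or more each. The density without those 17 domains was not computed.

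A small number of domains held many of the wild-type Myc summits that lay in the domains. In wild-type 17 domains held 10 or more Myc summits each, and together they held 372 of the 862 summits in the domains. Those 372 were 7.79% of the whole wild-type Myc list. The highest number was 54, at chr2:31324023-31349814 (rank 95, 25792 bp), which had 2 Myc summits in tet-Myc livers, 6 in tet-YAP livers and 2 in tet-Myc/YAP livers. Next were chr1:67168166-67188312 (rank 177) and chr3:146257170-146277196 (rank 178) with 34 each in wild-type, against 5 and 2 in tet-Myc. RNA polymerase II peaks covered a median of 92.5% of the 17 domains in tet-Myc livers, 92.2% in tet-YAP livers and 90.2% in tet-Myc/YAP, against 93.8% in wild-type, and in the 712 domains without a wild-type Myc summit these values were 47.3%, 28.3% and 34.5%, against 20.9%.

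A smaller share of the wild-type peaks in those 17 domains was found again. A tet-Myc Myc peak overlapped 40.1% of them (35.2 to 45.1%), against 82.9% of the wild-type peaks in the other domains (79.3 to 85.9%) and 79.9% of those elsewhere in the genome. Of the 862 wild-type peaks in the domains only 42 had a −log10 q of at least 10, and with that limit 2.6% of the domains kept a wild-type Myc peak, against 28.8% with all peaks. The domain at rank 95 also had a short H3K4me3 extent, with 8192 bp in tet-Myc livers, 8661 bp in tet-YAP livers and 5617 bp in tet-Myc/YAP livers, against 25792 bp in wild-type, while RNA polymerase II covered 90.2 to 96.0% of it in all 4 genotypes.

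TEAD occupancy of the domains was nearly the same in all genotypes. A TEAD peak overlapped 83.5% of the domains in tet-Myc livers, 81.0% in tet-YAP livers and 85.0% in tet-Myc/YAP, against 83.2% in wild-type (80.8 to 85.4%). Over all regions the shares were 69.3%, 62.0%, 75.5% and 66.6%. Acetylated domains had a TEAD peak in 95.5%, 94.0% and 96.8% of cases, against 95.02% in wild-type, and domains without H3K27ac in 11.9%, 3.17% and 11.9%, against 10.3%. TEAD summits averaged 2.89, 2.60 and 3.69 per domain, against 2.79 in wild-type.

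YAP was the factor whose presence at the domains differed most between the livers in which it was measured. A YAP peak overlapped 64.4% of the domains in tet-Myc/YAP (61.4 to 67.3%), against 6.4% in tet-YAP (5.04 to 8.09%). Over all regions the shares were 40.1% and 2.72%. Of the next 1000 regions by width 63.6% and 6.5% had a YAP peak in tet-Myc/YAP and tet-YAP. In acetylated domains the shares were 76.0% and 7.96%, and none of the 126 domains without H3K27ac had a YAP peak in either liver. With the tet-Myc/YAP list cut to 1328 peaks, the length of the tet-YAP list, 10.8% of the domains kept a YAP peak, and with peaks at a −log10 q of 10 or more 39.9% had YAP there, against 1.2% in tet-YAP. The peaks of the tet-YAP list were narrow, as given above, and the control of the tet-Myc/YAP list held 167.0 M tags, against 25.2 M for tet-YAP, and the part of either in the difference was not tested.

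**Figure D4:**
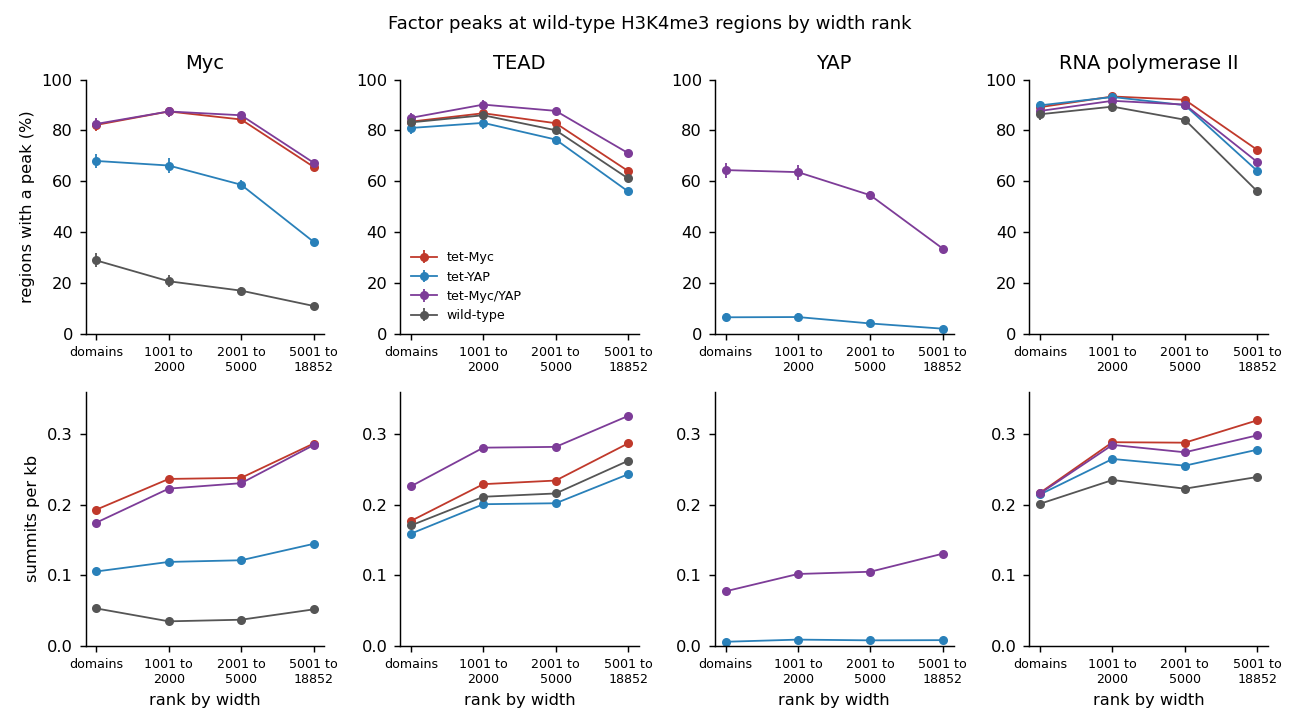
Regions with a peak (upper row, % with Wilson 95% intervals) and summits per kb (lower row) for Myc, TEAD, YAP and RNA polymerase II by width rank of the wild-type region, with 1 line per genotype. Shares were high in the domains and in the next 1000 regions and fell toward the narrowest regions, whereas summits per kb were lowest in the domains for each list except wild-type Myc.

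Most of the YAP domains of tet-YAP were also YAP domains of tet-Myc/YAP. Both lists had a peak at 61 domains, only tet-Myc/YAP had a peak at 583 and only tet-YAP at 3. Of the domains with YAP in tet-YAP 95.3% (87.1 to 98.4%) thus had it in tet-Myc/YAP, against 79.3% (75.3 to 82.8%) of the other regions with YAP in tet-YAP. Over all domains 64.4% had a YAP peak in tet-Myc/YAP, against 38.7% of all other regions. The other regions had a median width of 3193 bp, against 13611.5 bp, and the part of width was not tested. The 3 domains with YAP in tet-YAP only were chr18:69665851-69691849 (rank 93), chr19:43849666-43872913 (rank 123) and chr10:33916968-33928739 (rank 753), each with 1 YAP summit in tet-YAP. At ranks 93 and 753 there was no Myc summit in any genotype, and their H3K4me3 extents were 101116 and 24416 bp in tet-YAP, against 25999 and 11772 bp in wild-type. Rank 123 differed, with 6, 11 and 8 Myc summits in tet-Myc livers, tet-YAP livers and tet-Myc/YAP livers, against 2 in wild-type.

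The domains with most YAP carried all the other factors too. In tet-Myc/YAP 8 YAP summits lay in chr12:88219794-88238686 (rank 205, 18893 bp), 7 in chr5:143572222-143586336 (rank 457, 14115 bp) and 6 in chr10:76551716-76581767 (rank 56, 30052 bp). In tet-YAP the same domains had 1, 4 and 0. In tet-Myc/YAP they held 5, 3 and 6 Myc summits and 8, 4 and 11 TEAD summits, and their H3K4me3 extents there were 17480, 13708 and 24402 bp. All of them were acetylated over 97.6 to 100% of their width in every genotype.

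YAP in tet-Myc/YAP was concentrated where TEAD and Myc were both found. Of the 799 domains bound by TEAD in wild-type and by Myc in tet-Myc, 638 had YAP in tet-Myc/YAP (79.8%, 76.9 to 82.5%) and 62 had YAP in tet-YAP (7.76%). With Myc but no TEAD it was 4 of 23 in tet-Myc/YAP (17.4%, 6.98 to 37.1%) and 0 of 23 in tet-YAP, and with TEAD but no Myc it was 2 of 33 in each (6.06%, 1.68 to 19.6%). With neither it was 0 of 145 in both, which allows a share of up to 2.58% by the Wilson interval. Only 24 of those 145 domains were acetylated, and for 0 of 24 the interval reached 13.8%. Among acetylated domains YAP in tet-Myc/YAP was found at 606 of 745 with both factors (81.3%), 3 of 16 with Myc only and 2 of 19 with TEAD only. The part of acetylation in the contrast over all domains was not tested. The next 1000 regions by width came close to the domains. Of the 816 among them with both factors 75.1% (72.0 to 78.0%) had YAP in tet-Myc/YAP and 7.11% in tet-YAP. Of the 10342 other regions with both factors 60.9% had YAP in tet-Myc/YAP and 3.58% in tet-YAP. Those 10342 regions had a median width of 3798.5 bp, against 13360 bp for the domains.

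The share with YAP was lowest in domains without Myc summits and highest in those with most. Of domains without a Myc summit in tet-Myc/YAP 0.575% had YAP there, of those with 1 summit 54.5% (46.0 to 62.7%), with 2 summits 80.2% (73.7 to 85.4%) and with 6 or more 89.1% (81.9 to 93.6%). Other regions with the same number of summits had YAP in 3.595%, 49.4%, 58.9% and 91.7% of cases, the last of these over 12 regions. The domains were the wider regions at equal numbers of summits, and the part of width in these shares was not tested. Of the 126 domains without H3K27ac only 6 had a Myc peak in tet-Myc/YAP and 0 had YAP. Most of them thus fell among the domains without a Myc summit. The shares were not split by acetylation class, and the part of acetylation in them was not tested.

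Distances between summits differed between the YAP lists. In tet-Myc/YAP the 1259 YAP summits in the domains were at a median of 213 bp from the nearest Myc summit, 191 bp from the nearest TEAD summit and 346 bp from the nearest RNA polymerase II summit of that genotype. A distance of at most 100 bp was found for 30.02% of them to Myc and 29.5% to TEAD. In tet-YAP the 89 YAP summits were at a median of 51 bp from TEAD and 708 bp from Myc, and 69.7% of them (59.5 to 78.2%) lay within 100 bp of a TEAD summit, against 11.2% within 100 bp of a Myc summit. Outside the domains the YAP summits in other H3K4me3 regions had medians of 157 bp to Myc and 181 bp to TEAD in tet-Myc/YAP, and 838 bp to Myc and 66 bp to TEAD in tet-YAP. The Myc list held 13227 peaks in tet-YAP, against 30327 in tet-Myc/YAP. The median width of YAP peaks was 98 bp in tet-YAP, against 548 bp in tet-Myc/YAP. The part of these list differences in the distances was not tested.

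The position of the summits in the domains was scaled to width. Each domain was cut into 5 bins between its edges and its centre, and an even spread would give each bin the same share. Myc, TEAD and RNA polymerase II of tet-Myc/YAP were spread almost evenly, with 18.0 to 21.7% of their summits in each bin. YAP was less even, with 19.1, 24.9, 21.9, 18.2 and 15.8% of its summits in the bins from edge to centre in tet-Myc/YAP, and 14.6, 26.97, 25.8, 19.1 and 13.5% of 89 summits in tet-YAP. In tet-Myc/YAP the outermost bin held 21.6% of Myc summits, 21.3% of TEAD summits, 19.1% of YAP summits and 21.2% of RNA polymerase II summits, and the central bin held 18.0%, 18.4%, 15.8% and 18.8%. In the other regions of at least 1 kb the outermost bin held 6.57%, 10.3%, 3.11% and 8.57%, and the central bin 27.5%, 23.8%, 28.3% and 25%. In the next 1000 regions the outermost bin held 15.7%, 19.4%, 11.5% and 16.5%, which lay between.

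**Figure D5:**
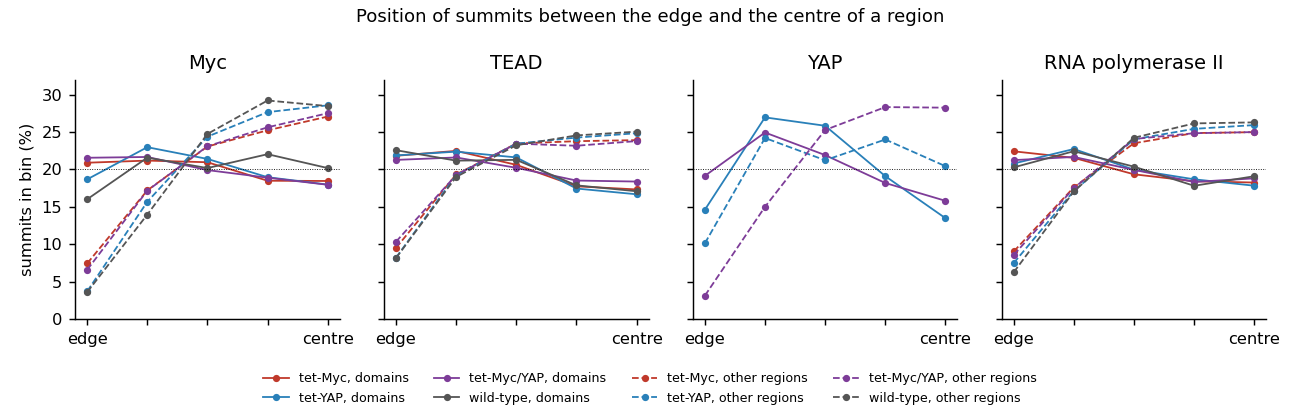
Share of summits (%) of Myc, TEAD, YAP and RNA polymerase II in 5 bins from the edge to the centre of a region, for the 1000 domains (solid) and the other wild-type H3K4me3 regions of at least 1 kb (dashed), with 1 line per genotype and a dotted line at 20%. Myc of tet-Myc/YAP had 21.6% of its summits in the outermost bin of the domains, against 6.57% in the other regions.

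Summits were also counted by distance in kb from the nearer edge. In the outer 0.5 kb of acetylated domains tet-Myc/YAP had 0.137 Myc summits, 0.211 TEAD summits and 0.0299 YAP summits per kb, and in acetylated regions of the next 1000 the densities were 0.115, 0.205 and 0.0154. From 0.5 to 1 kb they were 0.300, 0.412 and 0.109 per kb in the domains, against 0.274, 0.388 and 0.124. All acetylated regions outside the 1000 domains had higher densities at that distance, at 0.406, 0.482 and 0.188 per kb. From 2 to 5 kb inward they were 0.238, 0.317 and 0.117, against 0.240, 0.299 and 0.109. For each factor the density was lowest in the first 0.5 kb, a distance that is a small part of a wide domain and a large part of a narrow region.

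Summits favoured the strongly enriched stretches. Wild-type inner blocks made up 38.1% of the bases of the domains and held 70.5% of tet-Myc Myc summits (68.9 to 72.1%), 72.8% of wild-type TEAD summits and 83.5% of tet-Myc/YAP YAP summits (81.3 to 85.4%). RNA polymerase II summits were less bound to them, with 55.9% in tet-Myc livers, 60.6% in tet-YAP livers and 57.7% in tet-Myc/YAP, against 64.9% in wild-type. Almost all summits lay under wild-type H3K27ac, which covered 72.9% of the bases of the domains: 99.7% of tet-Myc Myc summits, 99.2% of wild-type TEAD summits, 99.9% of tet-Myc/YAP YAP summits and 97.5% of wild-type RNA polymerase II summits. These base shares pool the acetylation classes. In acetylated domains alone H3K27ac covered 98.2% of the bases and held 99.9% of tet-Myc Myc summits. Inner blocks there made up 46.3% of the bases and held 70.0% of tet-Myc Myc summits and 83.2% of tet-Myc/YAP YAP summits.

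Single peaks in the domains were not stronger than peaks elsewhere in H3K4me3. The median fold enrichment, compared only within a list, was 7.96 for tet-Myc Myc peaks in the domains and 9.33 in the other regions, 10.3 and 12.25 for tet-Myc/YAP Myc peaks, 6.50 and 6.925 for tet-Myc/YAP YAP peaks, and 5.61 and 6.14 for wild-type TEAD peaks. For RNA polymerase II the difference was wider, with medians of 7.22 in the domains and 10.1 in the other regions in tet-Myc, and 8 and 10.03 in wild-type. The domains nevertheless held 9.67% of all Myc peaks of tet-Myc, 13.0% of tet-YAP and 9.40% of tet-Myc/YAP, against 18.1% in wild-type.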

How the data were processed

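The submitters' processing notes name BWA 0.6.2, SAMtools, MACS2 2.0.9 and the mm9 build. The 14 narrow lists (Myc, TEAD, YAP, RNA polymerase II) were deposited with a pileup signal, a fold enrichment (ratio to background), and −log10 p and −log10 q values for each summit. The 9 broad lists were deposited by the authors as regions with inner blocks and a score of unstated scale. One sample titled as an input was not analysed here. Each of the 23 lists was 1 library, so no test was possible.

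Domains were compared with each list by overlap of at least 1 bp, and by bases covered, in Python 3.11.15 with numpy 2.4.6 and pandas 2.3.3; scipy 1.17.1 gave the intervals and matplotlib 3.10.9 the figures. The interval code was tested on simulated data, and bedtools 2.31.1 gave the same 822 domains with a tet-Myc Myc peak. A list whose caller threshold or depth differed can hold wider or more regions without any change in the tissue. Regions named by position were the 10 widest, the 5 on either side of rank 1000, the 3 with extreme ratios in each transgenic genotype, the 3 with most YAP summits, the widest with YAP in tet-YAP only, without induced Myc and with wild-type Myc, and the widest transgenic regions outside the domains. Limits of the acetylation classes were set after the values had been seen. The members, the lists and the rules were chosen with earlier results of these data known. Alternatives were other overlap rules, stricter peaks, shortened lists, other ratio limits, merged regions and ranking by score.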

Additional observations from a re-analysis of the deposited data

Results flagged for a closer look

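In the 126 domains without wild-type H3K27ac, H3K4me3 extent differed between the transgenic livers. The median ratio to wild-type width was 0.581 in tet-Myc and 0 in tet-Myc/YAP, where 64 of the domains had no region. In tet-YAP it was 1.085, between the limits for narrower and wider, with 39 of the domains wider and 22 narrower. By inner blocks every transgenic liver lay below wild-type. These blocks made up 10.95% of the bases in tet-YAP, 7.07% in tet-Myc and 4.12% in tet-Myc/YAP, against 14.15% in wild-type. With 1 library per genotype these differences were not tested. These domains had a median score of 2255 in the wild-type list, against 57241 in the acetylated domains, and the whole tet-YAP list had a median region width of 3498.5 bp, against 2646 bp in tet-Myc and 2524 bp in tet-Myc/YAP.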

How the results depend on the processing

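Of 150 alternative values for the 28 shares that answer a comparison, 14 differed from the reported share by more than 1.5 times. The share of narrower domains was 39.9% in tet-Myc with ratios divided by the median of all regions, and 24.6% in tet-YAP with a ratio limit of 1/1.5. With lists cut to the shortest of an antibody, Myc was found at 34.9% of domains in tet-Myc livers, 35.4% in tet-YAP livers and 34.6% in tet-Myc/YAP, and YAP in tet-Myc/YAP at 10.8% of domains and at 19.1% of those with TEAD and Myc. With −log10 q of at least 10, wild-type Myc was found at 2.6% of domains, YAP at 39.9% in tet-Myc/YAP and 1.2% in tet-YAP, and, of domains with TEAD and Myc, YAP at 52.1% in tet-Myc/YAP and 1.62% in tet-YAP. Over the 1000 regions of highest score, of which 212 were domains, the outermost bin held 12.2% of Myc and 8.91% of YAP summits of tet-Myc/YAP. Merging regions within 1 kb changed nothing, since none of the 18852 lay so close. The ratio, the acetylated-only, the position and the class-limit alternatives were chosen after seeing the data. No paired analysis was possible because each group had 1 library. The unknown depth and thresholds of the broad lists limit every statement on width.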

Other observations

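The share of wild-type H3K4me3 regions that were domains differed between chromosomes. It was 7.36% on chromosome 17, 7.14% on chromosome 18, 6.92% on chromosome 5 and 2.57% on chromosome X. Over the whole list 1000 of the 18852 regions were domains. Of the 63 domains on chromosome 17, 12 were covered in part by H3K27ac and 17 had none, while chromosome 11 had 3 and 2 such domains of 82. Another domain lay within 100 kb of 28.9% of the domains (26.2 to 31.8%), and among the next 1000 regions by width another of them lay within 100 kb of 19.9% (17.5 to 22.5%). Of the 196 domains covered in part or without H3K27ac, 49.5% had another of the same kind within 100 kb. No matching share was computed for other regions.

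The widest transgenic H3K4me3 regions that overlapped none of the domains were chr9:22028176-22046375 in tet-Myc (18200 bp), chr17:85665159-85748843 in tet-YAP (83685 bp) and chr9:22028275-22046956 in tet-Myc/YAP (18682 bp). In wild-type the site on chromosome 9 had a region of 9864 bp, just under the width of the domains. The tet-YAP region had a score of 1506, no H3K27ac in tet-YAP and no H3K4me3 region in wild-type.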
